A study of Mus musculus with 6 samples.

Results

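The genes described here are 39 genes of cholesterol synthesis and of the SREBP pathway, measured by QuantSeq 3′ mRNA-Seq in liver sinusoidal endothelial cells (LSECs). They were found by gene symbol among the 23282 rows of each count file, and 36 of the 39 passed edgeR's filter on low counts, which 11583 rows passed in all. RNA came from LSECs of TXNIP-/- mice, a total knockout and not one of endothelium alone, and from LSECs of WT mice, with 3 libraries per genotype and no treatment named in the labels. Per the study's methods the knockout is on a C57BL/6J background, C57BL/6J mice were the controls, and LSECs were enriched on a density gradient and picked with anti-CD146 beads. The methods describe culture of bead-selected LSECs in endothelial growth medium. They do not say whether the sequenced cells were cultured before their RNA was taken. The mice were fed standard chow. Their age and sex, and whether each library is 1 mouse or a pool, are not given in the sources used here, so p-values measure the spread between libraries. The list was made by function, but it was proposed with the genotype comparison of these libraries already known. Genotype differences of its members are therefore a description, and the p-values beside them only say where a gene stands in the fit across all genes.

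Cholesterol is built from acetyl-CoA through mevalonate, isoprenoid units, squalene and lanosterol. The SREBP transcription factors are held in the endoplasmic reticulum by the escort protein SCAP and the INSIG proteins while sterols are plentiful. When sterols run low, SCAP carries the SREBPs to the Golgi, where they are cut, and the released fragment turns on most genes of sterol and fatty acid synthesis together. LSECs also take up lipoproteins and other cargo by endocytosis, and NPC1 and NPC2 pass the cholesterol freed in lysosomes on to the rest of the cell.

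The libraries held 9147764 to 10193952 counts, and levels are given as CPM, the usual per-library scaling of counts by the total, here adjusted with TMM factors. A QuantSeq read marks the end of a transcript, so CPM needs no scaling by length, and a floor of 3 counts corresponds to 0.286 to 0.335 CPM. *Txnip* was at 20.4 to 30.04 CPM in the TXNIP-/- libraries and at 185 to 211 CPM in the WT libraries, so all 6 libraries matched their labels. By edgeR's fit the TXNIP-/- libraries kept 0.123 of the WT level of *Txnip*, and the source of these reads was not tested. A pair of libraries, WT replicates 1 and 2, differed from the rest, with 9.68% to 10.03% of counts in the ribosomal RNA row *Rn45s* against 16.8% to 18.6%. Values that rest most on them are given with and without a term for them. With that term the genotype difference compares the TXNIP-/- libraries with WT replicate 3 alone, so its WT side has no replicates. Endothelial markers were abundant, with *Cdh5* at 1069 ± 87.7 CPM in the TXNIP-/- and 1101 ± 103 CPM in the WT libraries (SD, n = 3). Macrophage markers were present too and differed between the genotypes, as described at the end.

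What the members share in sequence was read from their promoters, the 250 bases before to 50 bases after each RefSeq start (GRCm38.p6), which the table held for 31 of the 39 genes. No promoter was held for *Fdps*, *Fdft1*, *Sqle*, *Stard4*, *Npc1*, *Scd1*, *Scd2* and *Fads1*, so these were not searched. SREBPs bind sterol regulatory elements and E-boxes, usually beside factors that bind CCAAT boxes (NF-Y) and GC boxes (Sp1). A gene with several starts was counted as holding a motif if any of its promoters did. The CCAAT box, searched as CCAAT on both strands, was in the promoters of 26 of the 31 members (83.9%). It was in those of 43.0% of the 8824 genes above the filter with a promoter and of 41.1% of all 27025 genes with a promoter. The 5 members without it were *Acat2*, *Scap*, *Acaca*, *Elovl6* and *Fads2*. The GC box, searched as GGGCGG on both strands, was in 25 members (80.6%), against 69.6% of these genes above the filter and 38.2% of all. The E-box CACGTG, which reads the same on both strands, was in 5 members (*Hsd17b7*, *Sc5d*, *Dhcr7*, *Scap* and *Insig1*, 16.1%), against 12.0% and 8.09%. A strict form of the sterol element, TCACNCCAC on either strand, was in 1 member, *Hmgcs1* (3.23%), against 1.33% and 1.44%. Matches of different motifs overlapped in 0 cases. These are matches of letters in a short window, not binding sites, and a site spelled otherwise or lying elsewhere was not searched.

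The upstream sequence of *Hmgcs1* is shown because it alone, among the members searched, held the strict sterol element (chr13:119690101-119690350, plus strand, GRCm38.p6, the 250 bases before the start). Capitals mark 3 CCAAT boxes (written ATTGG where they lie on the other strand), the sterol element TCACCCCAC at positions -137 to -129 from the start, and 2 GC boxes (CCGCCC and GGGCGG).
Hmgcs1 upstream: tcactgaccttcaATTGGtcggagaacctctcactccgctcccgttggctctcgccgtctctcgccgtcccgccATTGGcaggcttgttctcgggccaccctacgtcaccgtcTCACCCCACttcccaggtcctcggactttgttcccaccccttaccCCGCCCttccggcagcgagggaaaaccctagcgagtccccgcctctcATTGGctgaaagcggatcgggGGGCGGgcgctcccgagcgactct

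Windows of 30 bases around the upstream CCAAT box nearest to the start, in capitals, are given for the 4 members in the promoter table with an unadjusted p under 0.05 (*Lss*, *Nsdhl*, *Msmo1* and *Npc2*, described with their levels) and for *Srebf2*, which encodes the SREBP that favours sterol genes. The window of *Insig1* shows its E-box, in capitals.
Lss (chr10:76531531-76531560, plus strand): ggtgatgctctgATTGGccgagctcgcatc
Nsdhl (chrX:72918489-72918518, plus strand): aagactagcctcATTGGgcaaaatcatgct
Msmo1 (chr8:64733616-64733645, minus strand): gagtggggcggaCCAATtacgacaggcgag
Npc2 (chr12:84773101-84773130, minus strand): agtgggtcggtaCCAATagagcggggcgaa
Srebf2 (chr15:82147122-82147151, plus strand): cttcgcgcgccgATTGGctaatgcaagcct
Insig1 (chr5:28071299-28071328, plus strand): gctgggtgaggtCACGTGgctccggtggca

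The CCAAT box of *Npc2* lay at -6 to -2 from its start, that of *Nsdhl* at -20 to -16, that of *Msmo1* at -55 to -51, that of *Lss* at -62 to -58 and that of *Srebf2* at -135 to -131. The E-box of *Insig1* lay at -101 to -96.

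Most of the listed genes were detected in the LSEC libraries. Macrophage RNA was present in these bulk libraries too, and which cells each transcript came from was not tested. Of the 39 members, 10 had a mean of at least 50 CPM over the 6 libraries, 19 lay between 10 and 50 CPM, 7 between 1 and 10 CPM and 3 under 1 CPM. The sterol carriers of the lysosome came first, with *Npc2* at 363 CPM, above 96.8% of the tested genes, and *Npc1* at 168 CPM, above 91.2%. Among the synthesis genes *Ebp* (90.2 CPM), *Acly* (86.3 CPM), *Lbr* (85.6 CPM) and *Hmgcs1* (84.0 CPM) were the highest. The tested members with the lowest means were *Lss* (4.004 CPM), *Dhcr7* (3.97 CPM), *Scd1* (3.59 CPM), *Acss2* (3.24 CPM) and *Elovl6* (2.43 CPM). *Npc1l1*, the cholesterol importer of the intestine, had 0 counts in all 6 libraries, which allows a level of up to 0.286 to 0.335 CPM per library from counting error alone.

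**Figure D1:**
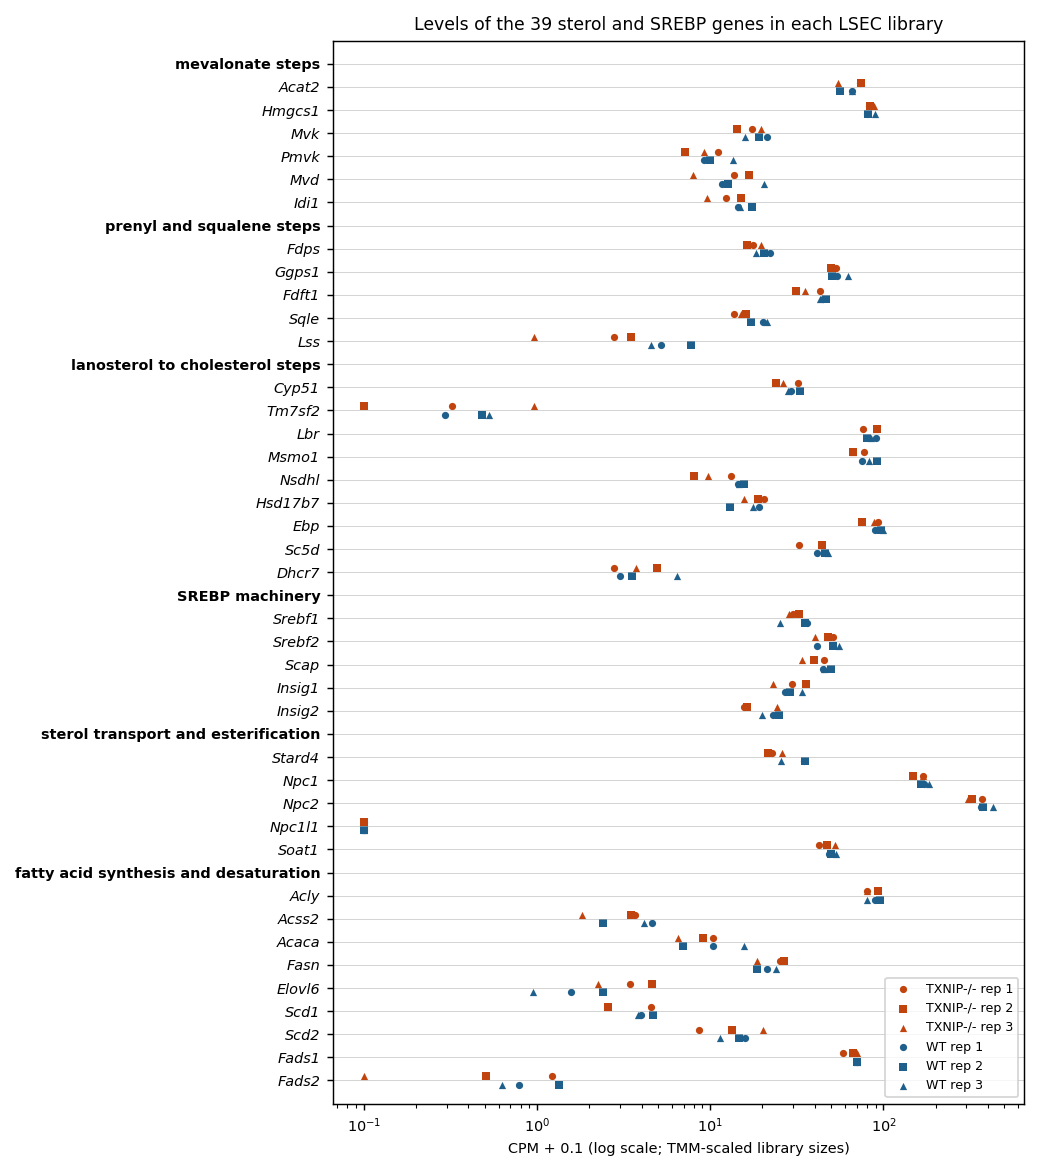
Level of each of the 39 genes in each library, as CPM plus 0.1 on a log axis, grouped by role; orange symbols are TXNIP-/- and blue symbols WT libraries, and circle, square and triangle are replicates 1, 2 and 3. Libraries of the genotypes are mixed for most genes, *Npc2* is the highest with 308 to 429 CPM, and *Npc1l1* is at 0 in every library.

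To ask whether loss of *Txnip* moves this pathway in LSECs, a quasi-likelihood model was fitted in edgeR to all 11583 genes, with genotype as the only term. No member passed an adjusted p of 0.05. The count was 0 lower and 0 higher among 36 tested members, while over all genes 0.976% were called lower and 0.57% higher. At an unadjusted p under 0.05 there were 5 members lower in TXNIP-/- LSECs (*Lss*, *Stard4*, *Npc2*, *Nsdhl* and *Msmo1*) and 0 higher, where 6.05% and 5.48% of all tested genes were so placed, and DESeq2 and limma-trend also called 0 members at an adjusted p under 0.05. By mean alone, 29 of the 36 members were lower in TXNIP-/- LSECs and 7 higher, against 50% of all tested genes lower. The median log2 fold change of the 36 members was -0.15, beside -2.8e-05 over all tested genes. The TXNIP-/- libraries all lay below the WT libraries for 4 members (*Sqle*, *Lss*, *Nsdhl* and *Fads1*), and above for 0, where 8.94% and 8.43% of all tested genes did so. Without WT replicate 3, 25 of the 36 were lower and the median was -0.12. Once WT replicates 1 and 2 had their own term, these values were 28 and -0.19.

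The 95% intervals show how large a difference these libraries leave room for. For 29 of the 36 members the interval lay inside a 2-fold change in either direction, and for 19 inside a 1.5-fold change, compared with 72.8% and 48.5% of all tested genes. The narrowest cases included *Npc2* (-0.42 to -0.02 on the log2 scale), *Npc1* (-0.30 to 0.11), *Hmgcs1* (-0.20 to 0.24) and *Lbr* (-0.22 to 0.25). The widest belonged to genes with few counts, such as *Elovl6* (-0.18 to 2.39) and *Lss* (-2.39 to -0.22), whose intervals reached past a 2-fold change.

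**Figure D2:**
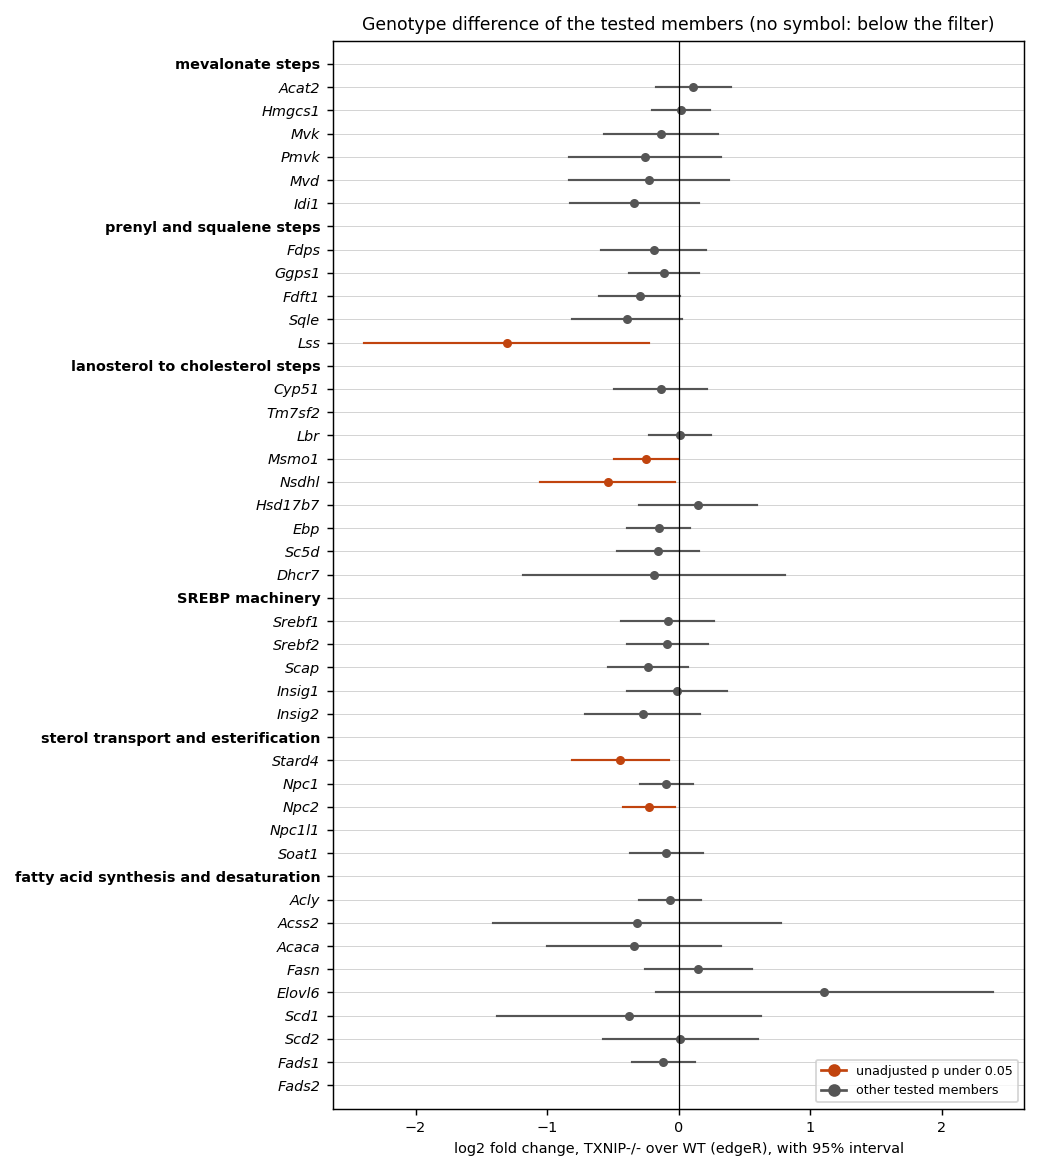
Log2 fold change of each tested member, TXNIP-/- over WT, from edgeR's fit (point) with its 95% interval (line), grouped by role; orange marks the 5 members with an unadjusted p under 0.05. Most points lie left of 0 and most intervals cross 0, and *Tm7sf2*, *Npc1l1* and *Fads2* carry no point because they were below the filter.

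**Figure D3:**
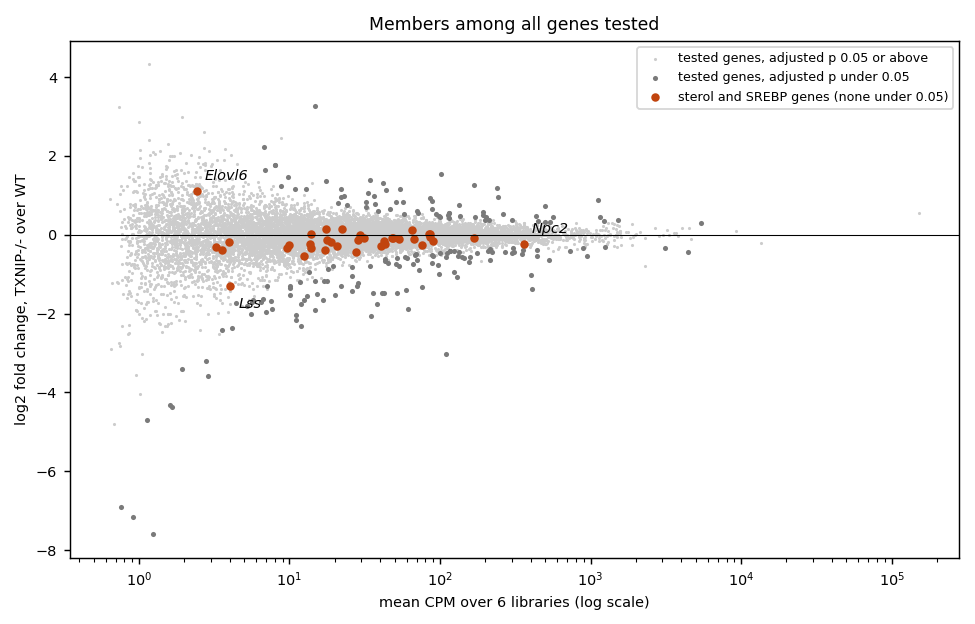
Log2 fold change, TXNIP-/- over WT, against mean CPM on a log axis for the 11583 genes tested; orange points are the 36 members, dark grey points genes with an adjusted p under 0.05 and light grey points the rest. The members lie inside the cloud of genes of like level, with *Lss* lowest and *Elovl6* highest among them.

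The first steps, from acetyl-CoA to isopentenyl units, gave overlapping levels in the genotypes for all 6 genes. *Hmgcs1* (chromosome 13, 119690379 to 119708260, GENCODE M21 on GRCm38, as for all positions of genes here), which makes HMG-CoA, had 82.0, 83.2 and 88.5 CPM in TXNIP-/- replicates 1, 2 and 3 and 80.0, 81.4 and 88.7 CPM in the WT replicates. The genotypes overlapped fully, with a log2 fold change of 0.02 (SE 0.10, edgeR adjusted p = 0.965). *Acat2*, the cytosolic thiolase that starts the pathway, was at 67.4 ± 10.9 against 62.3 ± 5.76 CPM (TXNIP-/- against WT, mean ± SD, n = 3), but its end is near-identical to *Acat3* and to part of *Tcp1*, and reads with several alignments were counted, so its level is uncertain. The kinases *Mvk* and *Pmvk* were at 17.0 ± 2.71 against 18.6 ± 2.70 CPM and at 9.02 ± 1.96 against 10.8 ± 2.26 CPM. The decarboxylase gene *Mvd* was at 12.6 ± 4.47 against 14.8 ± 4.78 CPM, and the isomerase gene *Idi1* at 12.2 ± 2.79 against 15.5 ± 1.56 CPM. None of the 6 mevalonate genes separated the genotypes, and their summed level was 203 ± 11.9 against 205 ± 11.9 CPM.

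The genes of the prenyl and squalene steps were all lower by mean in TXNIP-/- LSECs (log2 fold changes between -1.31 and -0.11). *Lss* (chromosome 10, 76531588 to 76557138) encodes lanosterol synthase, which folds the squalene chain into the first sterol ring system. Its counts were 24, 33 and 8 in TXNIP-/- replicates 1, 2 and 3 (2.68, 3.36 and 0.855 CPM) against 52, 80 and 42 in the WT replicates (5.06, 7.62 and 4.44 CPM). All 3 TXNIP-/- libraries were lower, though WT replicate 3 and TXNIP-/- replicate 2 were close. The log2 fold change was -1.31 (SE 0.51, edgeR adjusted p = 0.307), it ranged from -1.69 to -0.92 with each library left out, and a term for WT replicates 1 and 2 gave -0.94. The end of *Lss* overlaps an exon of *4930483K19Rik* on the opposite strand, and whether the counting used strand is not given in the sources used here.

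*Sqle* (chromosome 15, 59315077 to 59331192) encodes squalene epoxidase, a rate-limiting enzyme of this branch. Its levels were 13.5, 16.004 and 14.97 CPM in the TXNIP-/- libraries and 20.1, 17.1 and 21.3 CPM in the WT libraries, without overlap (log2 fold change -0.39 with an SE of 0.20, edgeR adjusted p = 0.472). The highest TXNIP-/- library and the lowest WT library were close, at 16.004 and 17.1 CPM.

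*Fdft1*, which encodes squalene synthase, was at 42.8, 31.2 and 35.1 CPM against 44.8, 46.3 and 42.7 CPM, and its end overlaps an exon of *Ctsb* on the opposite strand. *Fdps*, which makes farnesyl diphosphate, was at 17.7 ± 1.74 against 20.2 ± 1.91 CPM. *Ggps1*, which makes the geranylgeranyl chains that anchor small GTPases to membranes, was at 51.2 ± 1.99 against 55.3 ± 6.05 CPM. The ends of *Fdps* and *Ggps1* have near-identical copies elsewhere in the genome, and an exon of *Gm43738* overlaps that of *Fdps* on the same strand, so both levels are uncertain. For *Fdps* and *Fdft1*, WT replicate 3 lay within the range of the TXNIP-/- libraries while WT replicates 1 and 2 lay above it. Their log2 fold changes were -0.19 and -0.30, and once WT replicates 1 and 2 had their own term they were -0.037 and -0.23. Such a pattern was seen in 3 of the 36 members (*Stard4* is the other) and in 4.52% of all tested genes. Summed over the 5 genes of these steps, the level was 116 to 130 CPM in TXNIP-/- and 142 to 149 CPM in WT libraries.

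From lanosterol to cholesterol, 6 of the 8 tested genes were lower by mean and 2 higher. *Nsdhl* (X chromosome, 72918557 to 72958514), a sterol dehydrogenase of the demethylation complex, had 13.1, 7.95 and 9.62 CPM in the TXNIP-/- libraries and 14.3, 15.5 and 14.6 CPM in the WT libraries. The genotypes did not overlap, and the TXNIP-/- libraries were the more scattered (log2 fold change -0.54 with an SE of 0.24, edgeR adjusted p = 0.401). *Msmo1* (chromosome 8, 64718139 to 64733792), the methylsterol oxidase of the same complex, had 76.8, 66.4 and 66.6 CPM against 75.0, 91.7 and 82.3 CPM. Here TXNIP-/- replicate 1 lay above WT replicate 1 (log2 fold change -0.25 with an SE of 0.12, edgeR adjusted p = 0.430). *Hsd17b7*, the ketoreductase that completes the complex, was at 18.3 ± 2.41 against 16.5 ± 3.24 CPM, the opposite order by mean.

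The demethylase gene *Cyp51*, the isomerase gene *Ebp* and the desaturase gene *Sc5d* had log2 fold changes of -0.14, -0.15 and -0.16, with the genotypes overlapping. *Dhcr7*, the last reductase of the pathway, was at 3.70 ± 1.06 against 4.23 ± 1.85 CPM. The ends of *Cyp51* and *Lbr* overlap exons of *Akap9* and *Dnah14* on the opposite strand.

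The sterol reductase that follows *Cyp51* can be made from *Lbr*, the lamin B receptor, or from *Tm7sf2*. In the LSEC libraries nearly all of these transcripts came from *Lbr*, with 5002 counts over the 6 libraries against 20 for *Tm7sf2*. *Lbr* was higher in 6 of 6 libraries, by 8.19 ± 1.44 on the log2 scale (SD over 6 libraries, 0.5 added to each count). This and 4 other pairs of members were set side by side after their levels were seen, so the differences within pairs are a description with no test. *Lbr* itself was at 86.0 ± 8.59 against 85.3 ± 4.83 CPM, and *Tm7sf2* was below the filter with 0 to 8 counts per library.

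The regulators of the pathway overlapped between the genotypes in all 5 cases. *Srebf1* had 30.04, 32.4 and 28.4 CPM in the TXNIP-/- libraries and 36.0, 35.2 and 25.1 CPM in the WT libraries. WT replicate 3 was the lowest of all 6, and the log2 fold change of -0.08 (SE 0.17, edgeR adjusted p = 0.912) turned to 0.27 once WT replicates 1 and 2 had their own term. *Srebf2* had 51.1, 47.9 and 40.1 CPM against 41.4, 51.3 and 55.2 CPM, with TXNIP-/- replicate 3 and WT replicate 1 lowest (log2 fold change -0.09 with an SE of 0.15, edgeR adjusted p = 0.895). The end of *Srebf1* overlaps an exon of *Rai1* on the opposite strand.

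*Scap*, the sterol-sensing escort, had 45.3, 39.7 and 33.8 CPM in the TXNIP-/- and 44.8, 49.5 and 45.1 CPM in the WT libraries (log2 fold change -0.23 with an SE of 0.14, edgeR adjusted p = 0.588). Only TXNIP-/- replicate 1 reached the WT range. *Insig1*, which is both a brake on SCAP and a target of the SREBPs, had 29.7, 35.7 and 22.8 CPM against 26.8, 28.7 and 33.5 CPM, with TXNIP-/- libraries at both extremes (log2 fold change -0.01 with an SE of 0.18, edgeR adjusted p = 0.988). *Insig2*, the form that is not an SREBP target, had 15.6, 16.1 and 24.2 CPM against 22.9, 24.8 and 19.9 CPM, where TXNIP-/- replicate 3 lay among the WT libraries (log2 fold change -0.27 with an SE of 0.21, edgeR adjusted p = 0.681).

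Transcripts of *Srebf2* outnumbered those of *Srebf1* in 6 of 6 libraries, by 0.62 ± 0.31 on the log2 scale (SD over 6 libraries). *Insig1* was above *Insig2* in 5 of 6 libraries, by 0.53 ± 0.48 on the same scale.

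Sterol transport genes held the highest members and 2 of the 5 with an unadjusted p under 0.05. *Npc2* (chromosome 12, 84754562 to 84773152), which lifts cholesterol out of lysosomal membranes, had 371, 325 and 308 CPM in the TXNIP-/- libraries and 366, 377 and 429 CPM in the WT libraries. TXNIP-/- replicate 1 lay among the WT libraries, and giving WT replicates 1 and 2 their own term moved the value to -0.36 (log2 fold change -0.22 with an SE of 0.09, edgeR adjusted p = 0.353). *Npc1*, the membrane partner that receives this cholesterol, was at 163 ± 12.8 against 174 ± 9.56 CPM, and its annotated end overlaps an exon of *Rmc1* on the opposite strand.

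*Stard4* (chromosome 18, 33199355 to 33213862), a soluble carrier that moves cholesterol between membranes, had 22.7, 21.4 and 25.98 CPM in the TXNIP-/- libraries and 34.7, 35.0 and 25.5 CPM in the WT libraries. WT replicates 1 and 2 were high, and WT replicate 3 lay within the range of the TXNIP-/- libraries. The log2 fold change was -0.44 (SE 0.17, edgeR adjusted p = 0.307). It was -0.58 without WT replicate 3 (adjusted p = 0.0830, edgeR), the lowest adjusted p of any member in any fit, and -0.13 with a term for WT replicates 1 and 2. *Soat1*, which esterifies cholesterol for storage, was at 47.1 ± 4.93 against 50.3 ± 2.75 CPM.

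The fatty acid genes driven by SREBPs gave 5 of 8 tested members lower by mean and 3 higher. *Elovl6*, the elongase for long-chain saturated fatty acids, had the largest fold of the 36 members after *Lss*, and in the opposite direction, with 30, 44 and 20 counts in the TXNIP-/- and 15, 24 and 8 counts in the WT libraries. TXNIP-/- replicate 3 lay below WT replicate 2, at 2.14 against 2.29 CPM (log2 fold change 1.11 with an SE of 0.61, edgeR adjusted p = 0.520). *Acly*, which supplies cytosolic acetyl-CoA, was at 84.3 ± 7.30 against 88.2 ± 7.78 CPM. *Fasn*, the fatty acid synthase gene, was at 23.4 ± 4.40 against 21.1 ± 2.71 CPM, and the acetyl-CoA carboxylase gene *Acaca* at 8.55 ± 1.96 against 10.8 ± 4.33 CPM. *Acss2*, the acetyl-CoA synthetase gene, was at 2.88 ± 1.02 against 3.59 ± 1.16 CPM.

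*Fads1* had 58.1, 67.0 and 69.8 CPM in the TXNIP-/- libraries and 70.5, 70.4 and 70.2 CPM in the WT libraries. The genotypes did not overlap, but the gap between TXNIP-/- replicate 3 and the lowest WT library was under 1 CPM (log2 fold change -0.12 with an SE of 0.11, edgeR adjusted p = 0.789). *Fads2*, the partner desaturase, had 0 to 13 counts per library and was below the filter. *Fads1* exceeded it in 6 of 6 libraries by 7.08 ± 1.72 on the log2 scale (SD over 6 libraries).

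Of the stearoyl-CoA desaturases, *Scd2* had 8.49, 13.3 and 20.1 CPM in the TXNIP-/- libraries and 15.8, 14.5 and 11.2 CPM in the WT libraries. *Scd1*, the main form of hepatocytes, had 4.47, 2.45 and 2.46 CPM against 3.89, 4.57 and 3.70 CPM. Neither separated the genotypes (log2 fold changes 0.01 and -0.38, adjusted p = 0.991 and 0.853, edgeR), and the TXNIP-/- libraries held both extremes of *Scd2*. *Scd2* was above *Scd1* in 6 of 6 libraries, by 1.93 ± 0.72 on the log2 scale (SD over 6 libraries). Levels of different genes also depend on how well the annotated ends match those used in LSECs, which was not tested.

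Summed by role, the TXNIP-/- libraries lay below the WT libraries in 3 of the 6 groups. Besides the prenyl and squalene steps, these were the steps from lanosterol to cholesterol (332 to 347 against 361 to 382 CPM) and sterol transport (541 to 606 against 622 to 691 CPM, most of it *Npc1* and *Npc2*). The sums overlapped for the mevalonate steps, for the SREBP machinery (149 to 172 against 172 to 189 CPM) and for the fatty acid genes (195 to 219 against 210 to 218 CPM). All 39 members together summed to 1561 to 1660 CPM in the TXNIP-/- and 1720 to 1829 CPM in the WT libraries. Sums of surrounding gene lists, described below, also separated the genotypes in several cases. The TXNIP-/- libraries lay below for other SREBP targets (762 to 791 against 802 to 817 CPM). So they did for LXR receptors and targets (435 to 466 against 468 to 496 CPM). Oxysterol and sterol handling genes were also lower (606 to 612 against 636 to 677 CPM). Enzymes that use mevalonate products were higher (831 to 852 against 795 to 814 CPM), and SREBP processing overlapped. All these sums follow the choice of genes and are a description.

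**Figure D4:**
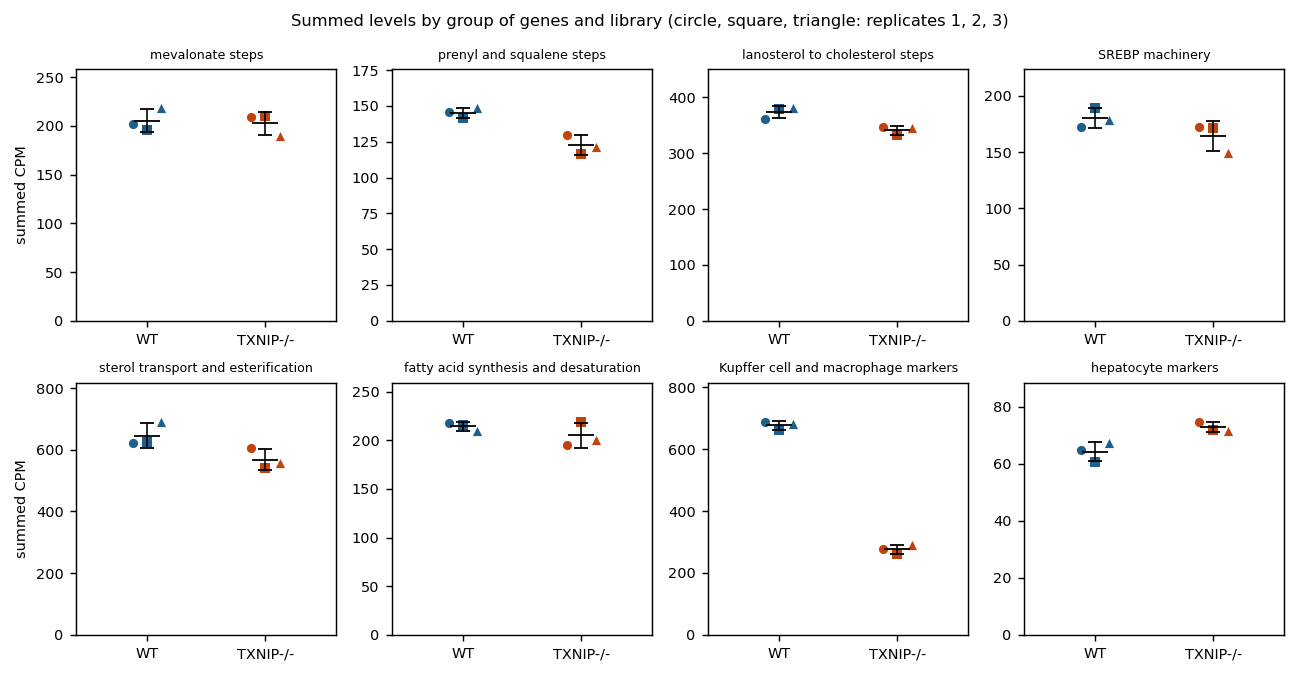
Summed CPM of each group of members and of the Kupffer cell and hepatocyte markers in each library, on axes that start at 0; blue is WT, orange TXNIP-/-, circle, square and triangle are replicates 1, 2 and 3, and the bar is the mean with SD (n = 3). The sums of the member groups differ little beside the macrophage markers, which are at 262 to 292 CPM in TXNIP-/- and 662 to 689 CPM in WT libraries.

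Genes around the pathway were read from lists chosen by function, again with earlier results known. Of 22 tested genes of SREBP processing and sterol-regulated degradation, 18 other SREBP targets and 17 enzymes that use mevalonate products, 0 passed an adjusted p of 0.05. DESeq2 and limma-trend called 0 of them as well. The smallest p in each belonged to *Ube2g2* (log2 fold change 0.28), *Mid1ip1* (0.68) and *Fntb* (-0.75), with adjusted p-values of 0.259, 0.0766 and 0.321 (edgeR), and at an unadjusted p under 0.05 these lists held 0, 2 and 1 genes that were lower and 1, 2 and 1 that were higher, beside 6.05% and 5.48% of all tested genes. *Mid1ip1*, which helps assemble active acetyl-CoA carboxylase, had 46.2, 37.9 and 37.7 CPM in the TXNIP-/- libraries and 29.2, 28.2 and 18.7 CPM in the WT libraries, without overlap. It passed the threshold when the low-count filter was dropped (0.67 on the log2 scale, edgeR adjusted p = 0.00836). With a term for WT replicates 1 and 2 the log2 fold change was 1.12. That value compares the TXNIP-/- libraries with WT replicate 3 alone, the lowest WT library at 18.7 CPM.

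Among 11 tested LXR receptors and targets, 1 gene was lower and 0 higher at an adjusted p under 0.05, beside 0.976% and 0.57% of all tested genes. At an unadjusted p under 0.05 there were 4 lower and 0 higher, beside 6.05% and 5.48% of all tested genes. *Mylip* (chromosome 13, 45389742 to 45412022), a ubiquitin ligase gene that is induced by oxysterols, fell from 77.9, 85.6 and 86.4 CPM in the WT libraries to 47.3, 44.0 and 57.2 CPM in the TXNIP-/- libraries. The genotypes were far apart (log2 fold change -0.75 with an SE of 0.12, edgeR adjusted p = 0.00300), and the call held with each library left out (adjusted p from 0.00322 to 0.0334). Among 18 tested genes of oxysterol and sterol handling, 1 was lower and 0 higher at the same adjusted threshold. At an unadjusted p under 0.05 there were 2 lower and 0 higher. *Lipa* (chromosome 19, 34492318 to 34527474), the lysosomal acid lipase that frees cholesterol for NPC2, fell from 113, 124 and 107 CPM to 77.8, 83.0 and 90.3 CPM (log2 fold change -0.46 with an SE of 0.11, edgeR adjusted p = 0.0380). The genotypes did not overlap, but the call held only without WT replicate 3 when libraries were left out in turn, with edgeR adjusted p from 0.0103 to 0.271.

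Markers of other cells moved with the genotype. Of 11 Kupffer cell and macrophage markers, 10 were tested. All 10 were lower in TXNIP-/- LSECs without overlap of the genotypes, as were 8.94% of all tested genes. An adjusted p of 0.05 was passed by 9 of them, where 0.976% of all tested genes were called lower. The summed level of the 11 markers was 262 to 292 CPM in the TXNIP-/- and 662 to 689 CPM in the WT libraries, a ratio of 0.408. The Kupffer cell marker *Clec4f* was at 7.17 ± 2.96 against 15.9 ± 4.45 CPM (log2 fold change -1.14, edgeR adjusted p = 0.0917). *Timd4*, with 0 to 12 counts per library, was below the filter, so its level cannot be compared. The 10 LSEC markers were all lower by mean, and 2 passed the threshold without overlap of the genotypes. These were *Stab1* (log2 fold change -0.46, edgeR adjusted p = 0.00984) and *Stab2* (-0.36, edgeR adjusted p = 0.0448). With *Fcgr2b* (-0.39, edgeR adjusted p = 0.0900), 3 of the 10 were lower without overlap, as were 8.94% of all tested genes. At an unadjusted p under 0.05, 6 were lower and 0 higher, beside 6.05% and 5.48% of all tested genes. Besides these 3 they were *Lyve1* (-0.79), *Gpr182* (-0.83) and *Oit3* (-0.28). The sums of the 10 markers were 4479 to 4893 against 5165 to 6907 CPM. *Lyve1* carried much of this gap, with 3482 and 3780 CPM in WT replicates 1 and 2 but 1520 CPM in WT replicate 3, inside the range of 1475 to 1976 CPM of the TXNIP-/- libraries. Without *Lyve1*, a choice made after its values were seen, the sums were 2916 to 3134 against 3127 to 3645 CPM and overlapped. The highest markers in these sums were *Cdh5* and *Pecam1*, which overlapped between the genotypes (log2 fold changes -0.04 and -0.08). Hepatocyte markers, whose cells make most of the cholesterol of the liver, summed to 71.6 to 74.8 CPM in the TXNIP-/- and 60.8 to 67.3 CPM in the WT libraries over 15 genes. Of 11 tested, 7 were higher by mean and 4 lower, with 0 past the threshold. *Apoa1* (log2 fold change 0.63) and *Apob* (2.31) were higher without overlap, as were 8.43% of all tested genes. *Alb* was at 20.3 ± 7.37 against 22.4 ± 1.78 CPM, and *Cyp3a11* and *Fga* were at or near 0. Stellate cell markers summed to 43.5 to 56.4 against 23.5 to 27.7 CPM over 9 genes, with *Dcn* past the threshold. Neutrophil and lymphocyte markers were under 1.7 CPM in sum in every library, and cholangiocyte markers between 1.85 and 6.25 CPM. Fewer cells of a type and less RNA per cell cannot be told apart in these bulk libraries, and the part of the macrophage difference in the values of *Npc2*, *Lipa*, *Mylip* or any other gene here was not tested.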

How the data were processed

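LSEC RNA was measured in 6 QuantSeq libraries, 3 TXNIP-/- and 3 WT, grouped by sample title. Per the study's methods, the authors used Bowtie2 for alignment of the single-end reads and Bedtools for counting, and reads with several alignments were counted too; the submitters' notes name mm10. Tool versions, annotation and use of strand are not given in the sources used here. The deposited values are whole-number counts by gene symbol, unnormalized, with 44 rows that repeat a symbol kept apart.

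Members and lists were chosen with earlier results of these data known. In R 4.3.3, counts were filtered with filterByExpr, TMM-scaled and fitted with edgeR 4.0.16 (glmQLFit, glmQLFTest; Benjamini-Hochberg over all genes). Standard errors and 95% intervals come from the log2 fold change, its F statistic and the test's degrees of freedom. Alternatives used DESeq2 1.42.0, limma 3.58.1 (limma-trend), other factors, filters and thresholds, the replicate block and left-out libraries. The edgeR script was tested on simulated data. All 39 members are accounted for; library values are printed for those with an unadjusted p under 0.05 or no overlap of genotypes, and for *Srebf1*, *Srebf2*, *Scap*, *Insig1*, *Insig2*, *Scd1* and *Scd2*. From the surrounding lists, genes past the adjusted threshold are named, or else the gene with the smallest p. A list of fatty acid oxidation genes is not reported here. *Fdft1*, *Hmgcs1* and *Elovl6* were added after their values were seen. The 5 pairs of members were also chosen after seeing the data and were not tested. An overlap or copy was sought over the last 500 bases of each member's protein-coding transcripts (blastn 2.17.0, at least 95% identity over 75 bases). Symbols *Ufd1*, *Faxdc2*, *Erg28* and *Ly6g* had no row. Promoter sequences are RefSeq's, on GRCm38.p6.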

Additional observations from a re-analysis of the deposited data

How the results depend on the processing

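Over 16 other fits, 0 of 576 values for the 36 tested members passed an adjusted p of 0.05, so the counts of 0 lower and 0 higher held in each, also with a fold change above 1.3 added, and the lowest adjusted p was 0.0830 (edgeR). With an unadjusted p under 0.05 the count lower was 5. The median log2 fold change of the members was -0.24 with no normalization factors (all tested genes -0.082) and between -0.18 and -0.12 with each library left out. That scaling also moved the calls over all genes from 113 lower and 66 higher to 150 lower and 36 higher. All-gene counts that differed by over 1.5 times were 222 lower and 124 higher with no filter on low counts, 68 and 40 with the replicate block, 230 and 137 without WT replicate 3, and 60 to 72 lower and 29 to 40 higher without any other library. DESeq2 called 155 lower and 112 higher, and only its count of higher genes differed by over 1.5 times. The replicate number did not pair the libraries (correlations of deviations -0.0296, 0.0167 and -0.0469), and with the replicate block 0 members were called and the median was -0.15. The sign changed in 27 of the 576 values, over 13 members. With no normalization factors these were *Hmgcs1* (-0.060), *Lbr* (-0.071) and *Scd2* (-0.077), and *Scd2* was also -0.058 with limma-trend and -0.049 with the replicate block. With a term for WT replicates 1 and 2 they were *Hmgcs1* (-0.070), *Mvk* (0.11), *Srebf1* (0.27), *Acly* (0.081) and *Fasn* (-0.030). With a library left out, log2 fold changes ranged over 0 for *Hmgcs1* (-0.017 to 0.067), *Mvd* (-0.47 to 0.066), *Lbr* (-0.037 to 0.093), *Hsd17b7* (-0.0056 to 0.26), *Dhcr7* (-0.42 to 0.22), *Srebf1* (-0.23 to 0.0046), *Srebf2* (-0.20 to 0.0036), *Insig1* (-0.18 to 0.14), *Acaca* (-0.58 to 0.0016) and *Scd2* (-0.35 to 0.27). The *Lipa* call was also lost with the replicate block and with that term. The cause of these changes was not tested. At 3 libraries per genotype and 9147764 to 10193952 counts, the members with the widest intervals were among the 7 between 1 and 10 CPM.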
